A study of Homo sapiens with 9 samples.

Results

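The HOXD cluster holds 9 genes for homeodomain transcription factors, HOXD1, HOXD3, HOXD4, HOXD8, HOXD9, HOXD10, HOXD11, HOXD12 and HOXD13, out of 58735 genes listed in the count tables. The members were chosen by gene name and position, as every HOXD gene of the cluster, in the order in which they lie on the chromosome. The cluster was taken up after an earlier look at the same libraries had shown HOXB3 and HOXB9, homeobox genes of another cluster, lower with AGB1, so the tests on HOXD genes below describe these libraries and are not independent evidence for a change in HOX genes. All groups were HEK293T cells, a transformed human embryonic kidney line, that carry PRPS1 fused to HA and a dTAG degron together with PRPSAP1 fused to V5 and a BromoTag degron, the vehicle controls included. The groups were cells given 500 nM dTAG47 for 24 h to degrade PRPS1, cells given 500 nM AGB1 for 24 h to degrade PRPSAP1, and cells given the vehicle DMSO, with 3 libraries each. PRPS1 makes phosphoribosyl pyrophosphate, the sugar phosphate from which nucleotides are built, and PRPSAP1 is a protein associated with that enzyme. The labels name neither a clone nor a pool for the line, and they do not tell separate cultures from repeat preparations, so a p-value here reflects library-to-library spread that could be technical.

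HOX genes give cells their position along the body axis, and genes of a cluster are switched on in the order in which they lie on the chromosome, the genes at the HOXD13 end last and furthest towards the tail and the limb tips. Polycomb complexes keep the unused genes of a cluster silent, trithorax proteins and retinoic acid receptors open them, and CTCF and cohesin divide the cluster into domains. Among the HOXD genes, HOXD13 shapes the digits and is mutated in synpolydactyly, and HOXD11 acts with its paralogs in the forearm and, in the mouse, in the embryonic kidney.

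The 9 genes lie on the plus strand of chromosome 2 within 98.0 kb of the GRCh38 build, between positions 176092891 and 176190907, with HOXD13 first and HOXD1 last. Promoter sequences were looked up by symbol in RefSeq's table for GRCh38.p14, from 250 bases before to 50 bases after each start, and 8 of the 9 genes had an entry. HOXD9 was not among them. The 3 printed here belong to HOXD13, HOXD12 and HOXD10. HOXD13 had the highest level of the cluster. HOXD12 begins 3.79 kb after HOXD13 ends and had at most 25 counts in a library. HOXD10 had a lower level in every compound-treated library than in every DMSO library. Capitals mark matches on either strand to 6 motifs. These were the letters TATAAA of the box that places the start of many genes, the letters CCAAT bound by the factor NF-Y, the letters GGGCGG bound by SP1, and the letters CACGTG bound by E-box factors such as MYC. The other two were the letters AGGTCA of nuclear receptor sites and the letters TTTAT at the core of sites preferred by the posterior HOX proteins.
HOXD13 promoter (chr2:176092471-176092770, plus strand): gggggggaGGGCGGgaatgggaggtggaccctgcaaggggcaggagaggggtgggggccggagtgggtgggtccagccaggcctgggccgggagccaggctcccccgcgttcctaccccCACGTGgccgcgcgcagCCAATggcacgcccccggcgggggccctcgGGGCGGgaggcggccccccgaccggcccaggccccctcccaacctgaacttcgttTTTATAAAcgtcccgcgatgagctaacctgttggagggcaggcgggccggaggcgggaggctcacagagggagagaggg
HOXD12 promoter (chr2:176099545-176099844, plus strand): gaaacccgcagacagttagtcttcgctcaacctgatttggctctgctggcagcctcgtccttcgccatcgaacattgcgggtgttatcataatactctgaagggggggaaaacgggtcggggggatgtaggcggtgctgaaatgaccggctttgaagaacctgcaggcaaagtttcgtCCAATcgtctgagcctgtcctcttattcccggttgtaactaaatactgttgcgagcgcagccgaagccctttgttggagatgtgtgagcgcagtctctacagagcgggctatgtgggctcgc
HOXD10 promoter (chr2:176116528-176116827, plus strand): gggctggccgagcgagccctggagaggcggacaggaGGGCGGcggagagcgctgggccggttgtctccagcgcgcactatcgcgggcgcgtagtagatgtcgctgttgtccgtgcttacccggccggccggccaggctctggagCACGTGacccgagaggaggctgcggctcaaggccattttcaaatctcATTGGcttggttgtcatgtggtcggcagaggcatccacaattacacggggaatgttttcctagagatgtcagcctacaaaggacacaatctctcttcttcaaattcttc

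The box of TATAAA was found in 11.5% of the 35116 promoters in the table and in 1 of the 8 HOXD promoters, that of HOXD13. There it lay on both strands, with first bases at -29 and -27 when the start base is counted as 0. It overlapped matches to the posterior HOX core, as any TATAAA must, since it contains ATAAA, the core read on the other strand. The E-box letters were found in 7.26% of all promoters and in 5 of the 8 HOXD promoters, those of HOXD13, HOXD11, HOXD10, HOXD3 and HOXD1. The NF-Y letters were found in 34.6% of all promoters and 6 of the 8, the SP1 letters in 44.95% and 5, the posterior HOX core in 34.9% and 3, and the nuclear receptor letters in 13.8% and 0. The HOXD13 window was 74% G and C with 24 CpG dinucleotides, the HOXD10 window 60% with 23, and the HOXD12 window 54.3% with 19, against medians of 58.7% and 14 over all promoters. These matches describe the letters in the windows and were not tied to binding. The windows follow RefSeq starts, which differ from those of the counted gene models: the model of HOXD10, for instance, begins inside HOXD11.

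Total counts per library ranged from 27964128 to 44803380, so that 3 counts, taken as the floor, correspond to between 0.0670 and 0.107 CPM, the count scaled to the TMM-adjusted library total. PRPS1 had 106.4 to 113.4 CPM with dTAG47, 108.5 to 109.6 CPM with AGB1 and 99.1 to 106 CPM in DMSO, and PRPSAP1 averaged 29.6, 29.1 and 29.4 CPM. The degrons act on protein, so these transcript levels do not check the depletion. Of 7 HEK293T-associated markers, VIM averaged 354 CPM, NEFM 193 CPM, NEFL 101.4 CPM, CDH2 72.1 CPM and SALL1 37.8 CPM over the 9 libraries, while the kidney-lineage factors LHX1 and PAX2 were low at 3.06 and 1.37 CPM. The epithelial markers KRT18, KRT8, CDH1 and EPCAM were at 52.0, 31.4, 7.21 and 2.13 CPM. Summed over 15 markers of blood, endothelium, fibroblasts, liver and muscle, libraries had 29.3 to 37.4 CPM with dTAG47, 27.05 to 31.3 CPM with AGB1 and 32.9 to 35.05 CPM in DMSO, of which COL1A1 made up 26.99 CPM on average. PTPRC and MYH7 had at most 1 count in a library, and CDH5 and DCN at most 6. The rank correlation between a gene's deviation in a library and its transcript GC content over 11435 genes was 0.625, -0.330 and 0.029 in dTAG47 1 to 3, -0.006, -0.027 and 0.050 in AGB1 1 to 3, and -0.379, -0.282 and 0.272 in DMSO 1 to 3, and did not separate the groups.

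Expression was concentrated at the HOXD13 end of the cluster. On the scale of mean CPM per kilobase of gene model over the 9 libraries, HOXD13 stood at 35.5, HOXD10 at 10.2, HOXD9 at 5.10, HOXD11 at 3.57 and HOXD8 at 3.36. The remaining members were far lower, with HOXD12 at 0.267, HOXD4 at 0.149, HOXD3 at 0.1004 and HOXD1 at 0.0582 CPM per kilobase. Among the 40 HOX entries of the tables, in which HOXC5 is listed under 2 identifiers, HOXD13 ranked 3 and HOXD10 ranked 10, while the scarcest 4 HOXD genes ranked 33, 36, 37 and 38. In DMSO, HOXD11 at 3.97 ± 0.343 and HOXD8 at 3.61 ± 0.235 CPM per kilobase (SD, n = 3) did not differ beyond their spread, and neither did HOXD12 at 0.363 ± 0.118 and HOXD4 at 0.247 ± 0.159, HOXD4 and HOXD3 at 0.179 ± 0.110, or HOXD3 and HOXD1 at 0.0626 ± 0.0317. HOXD12, at 0 to 25 counts per library, was thus scarce between HOXD13 and HOXD11, which were both well measured. In bulk RNA, fewer cells expressing a gene and less RNA per cell cannot be told apart.

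**Figure D1:**
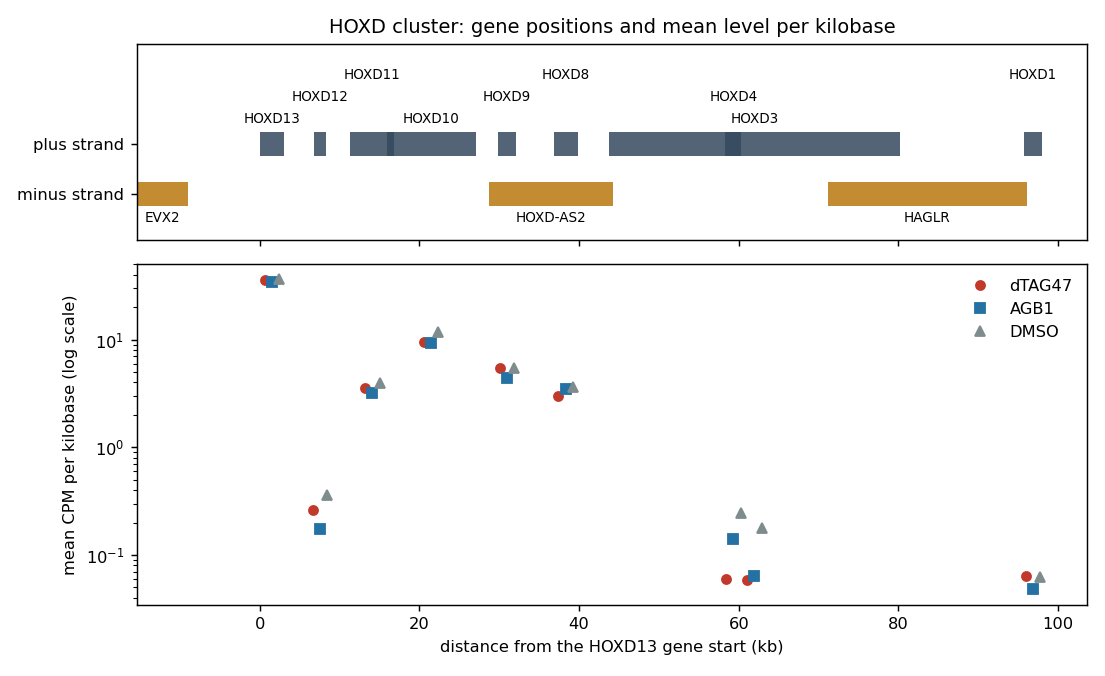
The upper panel maps the 9 HOXD genes on the plus strand and EVX2, HOXD-AS2 and HAGLR on the minus strand by distance in kb from the HOXD13 gene start, and the lower panel gives each HOXD gene's mean CPM per kilobase (log scale) with dTAG47, AGB1 and DMSO, 3 libraries each. HOXD13 stands at 35.7, 34.6 and 36.3 CPM per kilobase with dTAG47, AGB1 and DMSO. HOXD12 beside it is under 1 in every group, and so are the genes from HOXD4 onwards.

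Counts of 8 HOXD genes passed the filter on low values and were tested with edgeR within a fit of all 18319 tested genes. In the comparison of dTAG47 with DMSO, 0 of the 8 passed an adjusted p of 0.05, where 0.0600% of all tested genes did. AGB1 against DMSO gave 0 of 8 as well, with 0.104% of all tested genes called. Unadjusted p was under 0.05 for 2 of the 8 with dTAG47 (HOXD10 and HOXD4) and for 1 with AGB1 (HOXD10), shares to be read against 7.28% and 7.76% of all tested genes. HOXD4 had 9 counts summed over dTAG47 libraries and 38 over DMSO libraries. It reached the filter level in 0 dTAG47, 1 AGB1 and 2 DMSO libraries, so its place in that count favours a lower value with dTAG47. With limma-voom 0 of the 8 were called in either comparison, and DESeq2 called 0 of the 5 members to which it gave an adjusted p with dTAG47 and 1 of 7, HOXD10, with AGB1. Among all 18319 genes, limma-voom called 10 with dTAG47 and 16 with AGB1, and DESeq2 called 47 and 67, more than edgeR. DESeq2 gave no adjusted p to HOXD3, HOXD4 and HOXD12 with dTAG47 and to HOXD4 with AGB1. Both compounds were compared with the same 3 DMSO libraries, so the values for dTAG47 and AGB1 share whatever is particular to those libraries.

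Each of the 8 tested members had a negative log2 fold change in both comparisons, with a median of -0.31 for dTAG47 and -0.34 for AGB1, where 50.3% of all tested genes were negative in each and the medians were -0.0010 and -0.0009. The signs held under each scaling tried, and leaving out 1 library turned that of HOXD13, HOXD12 or HOXD9 with dTAG47 and of HOXD8 with AGB1. HOXD3 and HOXD4 reached the filter level of 0.304 CPM mainly in DMSO libraries, so their place among the 8 favours lower values with the compounds. Fitted with no count filter, HOXD1, the member that was not tested, gave 0.04 (SE 1.43) with dTAG47 and -0.38 (SE 1.46) with AGB1. Over the 5 members at a mean of 5 CPM or more, each again negative in both comparisons, the medians were -0.17 for dTAG47 and -0.30 for AGB1, against 0.0052 and 0.0028 over the 11436 tested genes at that level. Every dTAG47 library lay below every DMSO library for 2 members, HOXD10 and HOXD8, as for 5.82% of all tested genes. Every AGB1 library lay below every DMSO library for 2 members, HOXD10 and HOXD9, as for 6.75% of all tested genes.

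**Figure D2:**
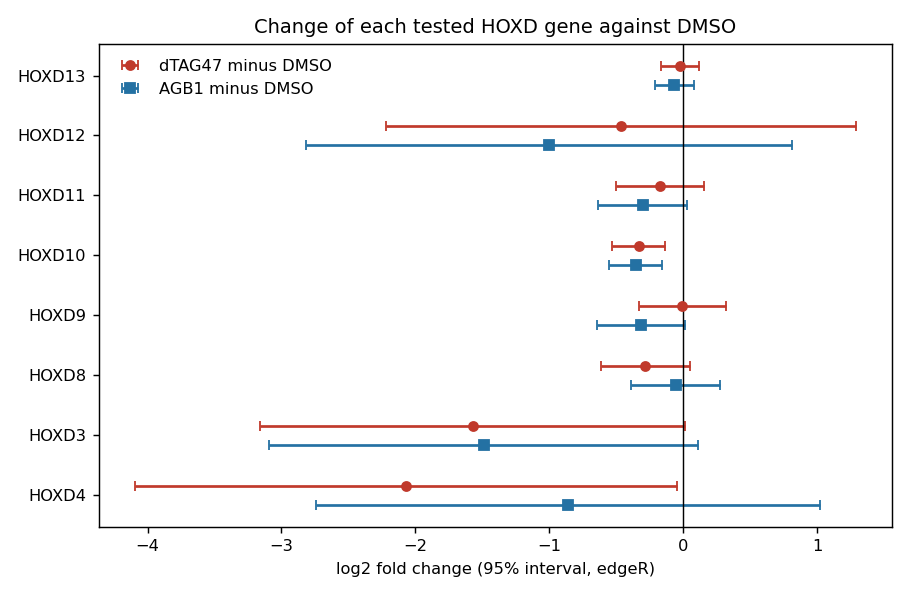
Points give the log2 fold change of the 8 tested HOXD genes, in chromosome order, for dTAG47 minus DMSO (circles) and AGB1 minus DMSO (squares), with 95% intervals from edgeR. HOXD10 is the gene whose intervals lie below 0 in both comparisons, HOXD13 has intervals close around 0, and the intervals of HOXD12, HOXD3 and HOXD4 each span more than 2 log2 units.

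HOXD13, the digit gene and the member with the highest level, had overlapping levels in the 3 groups. It had 83.2, 78.5 and 78.0 CPM with dTAG47, 78.9, 74.2 and 79.6 CPM with AGB1, and 76.7, 78.4 and 88.6 CPM in DMSO. DMSO 3 was the highest library, and the other 8 lay within 74.2 to 83.2 CPM whatever their group. The log2 fold change was -0.02 (SE 0.07, 95% interval -0.17 to 0.12) for dTAG47 and -0.07 (SE 0.07, 95% interval -0.21 to 0.08) for AGB1, with adjusted p of 0.967 and 0.871 by edgeR. The dTAG47 value changed sign to 0.04 without DMSO 3.

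HOXD10, which in the mouse patterns motor neurons of the lumbar cord and in humans is mutated in congenital vertical talus, had 25.2, 23.7 and 27.1 CPM with dTAG47, 25.7, 25.3 and 23.8 CPM with AGB1, and 30.6, 31.2 and 33.9 CPM in DMSO. The highest of the 6 compound-treated libraries, dTAG47 3, was below the lowest DMSO library, while the dTAG47 and AGB1 libraries overlapped each other. Separation below DMSO was seen for 5.82% of all tested genes with dTAG47 and 6.75% with AGB1, and the share with both was not computed. It was not particular to HOXD10: HOXA2, HOXA4, HOXA5, HOXA10, HOXB2, HOXB3, HOXB5, HOXB9, HOXC4, HOXC9, HOXC11 and HOXC13 showed it with both compounds. The other tested genes of clusters A, B and C did not show it with both, and HOXA9 and HOXB13 showed it with neither. Means were 25.3 ± 1.66 CPM with dTAG47, 24.9 ± 1.01 CPM with AGB1 and 31.9 ± 1.74 CPM in DMSO (SD, n = 3 each). The fitted change was -20.6% with dTAG47 and -21.8% with AGB1. By edgeR the log2 fold change was -0.33 (SE 0.10, 95% interval -0.53 to -0.14, adjusted p = 0.294) for dTAG47 and -0.36 (SE 0.10, 95% interval -0.55 to -0.16, adjusted p = 0.205) for AGB1. Neither passed the threshold after adjustment over all genes. DESeq2 gave an adjusted p of 0.0417 for AGB1 and 0.0794 for dTAG47, and over all alternatives the adjusted p ran from 0.0417 to 0.588 for AGB1 and from 0.0794 to 0.597 for dTAG47, with log2 fold changes between -0.38 and -0.31 and between -0.38 and -0.29. With the GC trend of each library removed, the values were -0.34 for dTAG47 and -0.37 for AGB1. HOXD10 and HOXD11 share 452 exonic bases on the same strand in the gene models used for counting, 16.8% of those of HOXD10 and 21.4% of those of HOXD11, and how reads from these bases were assigned is not given in the sources used here.

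**Figure D3:**
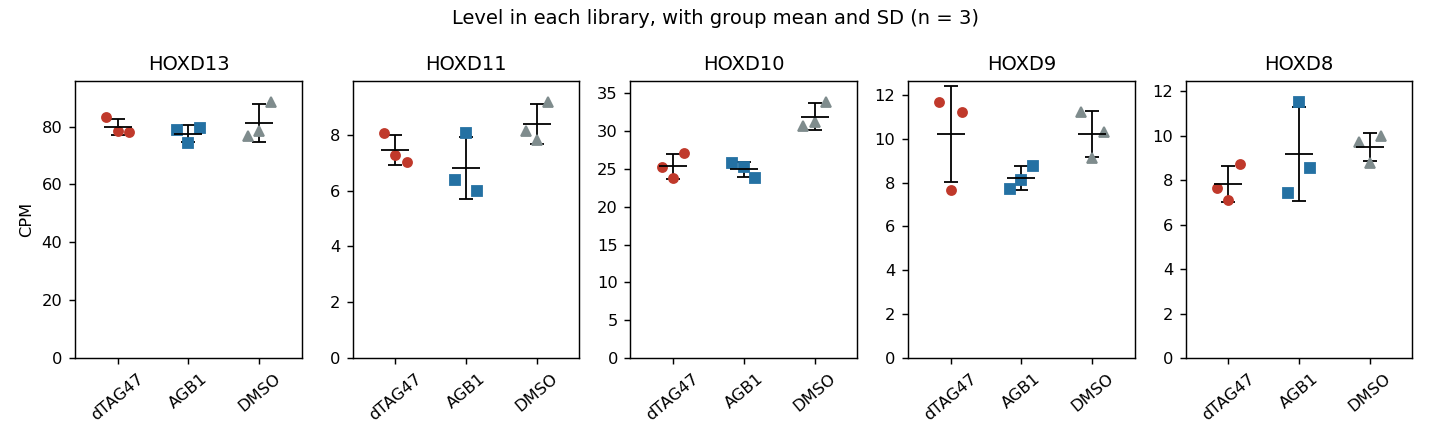
Each panel gives the CPM of one HOXD gene in the 3 libraries with dTAG47, AGB1 and DMSO (points), with the group mean and SD (bars), for the 5 members at 5 CPM or more, on axes that start at 0. In the HOXD10 panel all 6 compound-treated libraries lie between 23.7 and 27.1 CPM, below the DMSO libraries at 30.6 to 33.9 CPM, while the groups overlap for HOXD13 and HOXD11.

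Set against HOXD13 in the same library, a ratio that does not depend on library size, HOXD10 again stood apart. The ratio reuses the same HOXD10 counts, and HOXD13 had log2 fold changes of only -0.02 with dTAG47 and -0.07 with AGB1. The separation here is therefore not a second line of evidence. HOXD10 had 30.3, 30.2 and 34.7 counts per 100 HOXD13 counts with dTAG47, 32.6, 34.1 and 29.9 with AGB1, and 39.9, 39.8 and 38.2 in DMSO. Every compound-treated library was below every DMSO library. Group means of this ratio were 31.8 ± 2.55, 32.2 ± 2.12 and 39.3 ± 0.940 (SD, n = 3 each) for dTAG47, AGB1 and DMSO. The pair was picked after its values were seen, so no test is given. HOXD13 made up 60.8% ± 1.93 of the summed HOXD level (CPM) with dTAG47, 60.9% ± 2.53 with AGB1 and 56.9% ± 1.20 in DMSO, and that sum was 131 ± 5.91, 127 ± 0.557 and 143 ± 9.30 CPM (SD, n = 3 each).

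**Figure D4:**
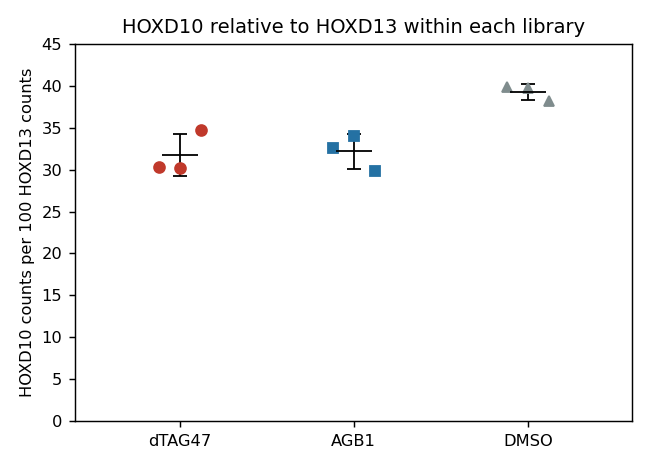
Points give HOXD10 counts per 100 HOXD13 counts in each of the 3 libraries with dTAG47, AGB1 and DMSO, and bars the group mean and SD, on an axis that starts at 0. The DMSO libraries sit between 38.2 and 39.9, above the 6 compound-treated libraries at 29.9 to 34.7.

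HOXD11, the forearm and kidney gene beside HOXD10, had 8.05, 7.26 and 7.02 CPM with dTAG47, 6.37, 8.05 and 5.99 CPM with AGB1, and 8.14, 7.79 and 9.18 CPM in DMSO. AGB1 2 and dTAG47 1 reached into the DMSO range, so the groups overlapped. Its log2 fold change was -0.17 (SE 0.16, adjusted p = 0.870 by edgeR) for dTAG47 and -0.30 (SE 0.16, adjusted p = 0.683) for AGB1. Its counts carry the uncertainty of the exonic bases shared with HOXD10.

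HOXD9, which acts in the forelimb and in spinal motor neurons of the mouse, had 11.7, 7.68 and 11.2 CPM with dTAG47, 7.70, 8.13 and 8.77 CPM with AGB1, and 11.2, 9.10 and 10.3 CPM in DMSO. All AGB1 libraries lay below the DMSO libraries, whereas dTAG47 covered the range of both other groups. The log2 fold change was -0.01 (SE 0.16) for dTAG47 and -0.32 (SE 0.16, 95% interval -0.64 to 0.01, adjusted p = 0.656 by edgeR) for AGB1. Set directly against AGB1, dTAG47 gave a log2 fold change of 0.31 (SE 0.16, 95% interval -0.02 to 0.64, adjusted p = 0.999 by edgeR), so the compounds were not shown to differ for this gene. The sign of the dTAG47 value changed without dTAG47 2, to 0.17, and without DMSO 1, to 0.07.

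HOXD8, a gene of the middle of the cluster with expression in the trunk of the embryo, had 7.65, 7.10 and 8.72 CPM with dTAG47, 7.43, 11.5 and 8.55 CPM with AGB1, and 9.72, 8.79 and 9.96 CPM in DMSO. All dTAG47 libraries lay below the DMSO libraries, the nearest by less than 0.1 CPM, and AGB1 2 was the highest of all 9. The log2 fold change was -0.28 (SE 0.16, 95% interval -0.61 to 0.05, adjusted p = 0.744 by edgeR) for dTAG47 and -0.06 (SE 0.16, adjusted p = 0.968) for AGB1. Without AGB1 1 the AGB1 value was 0.08.

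The remaining 4 members were counted in handfuls of reads. HOXD12, a limb gene next to HOXD13, had 24, 14 and 2 counts with dTAG47, 22, 3 and 0 with AGB1, and 14, 12 and 25 in DMSO. Libraries of one group differed more than the groups did, and the log2 fold changes of -0.46 (SE 0.86) for dTAG47 and -1.002 (SE 0.89) for AGB1 had intervals of -2.22 to 1.29 and -2.82 to 0.81. The library at 0, AGB1 3, allows up to 0.0971 CPM, and a difference between the groups was not detectable at this depth. With 1 library left out, the AGB1 value ran from -3.15 without AGB1 1 (adjusted p = 0.694 by edgeR) to -0.44 without AGB1 3, and the dTAG47 value from -1.32 without dTAG47 1 to 0.0087 without dTAG47 3. For AGB1, limma-voom gave -2.11 and a block on the replicate number -1.79.

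HOXD4 and HOXD3, which pattern the upper neck vertebrae of the mouse, both had their highest counts in DMSO. HOXD4 had 2, 2 and 5 counts with dTAG47, 1, 11 and 6 with AGB1, and 16, 3 and 19 in DMSO, and DMSO 2 fell within the range of both compounds. HOXD3 had 11, 11 and 2 counts with dTAG47, 6, 8 and 7 with AGB1, and 28, 28 and 7 in DMSO, so that here DMSO 3 was the library in the range of the others. Log2 fold changes were -2.07 (SE 0.99, adjusted p = 0.681 by edgeR) and -0.86 (SE 0.92) for HOXD4 and -1.57 (SE 0.78, adjusted p = 0.681) and -1.49 (SE 0.78, adjusted p = 0.671) for HOXD3, with dTAG47 and then AGB1. The AGB1 value of HOXD4 ran from -1.72 without AGB1 2 to -0.31 without AGB1 1, and its dTAG47 value from -2.77 without dTAG47 3 to -1.73 without dTAG47 2. HOXD3 reached the filter level in 1 dTAG47, 0 AGB1 and 2 DMSO libraries and HOXD4 in 0, 1 and 2.

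The gene models of HOXD3 and HOXD4 are entangled with a readthrough entry. AC009336.2, annotated as a coding gene on the same strand, covers 62.2% of the exonic bases of HOXD3 and 80.5% of those of HOXD4, and reads from shared exons cannot be assigned to one of them. AC009336.2 had 13, 20 and 4 counts with dTAG47, 19, 17 and 15 with AGB1, and 10, 14 and 12 in DMSO. Its log2 fold changes were -0.14 (SE 0.69, adjusted p = 0.984 by edgeR) for dTAG47 and 0.60 (SE 0.68, adjusted p = 0.885) for AGB1, where its CPM was higher in every AGB1 library than in every DMSO library, as for 6.56% of all tested genes, while HOXD3 and HOXD4 had negative values. On the opposite strand, HOXD-AS2 covers 10.7% and HAGLR 3.78% of the exonic bases of HOXD3. HOXD-AS2 had 248, 257 and 286 counts summed over the dTAG47, AGB1 and DMSO libraries, against 24, 21 and 63 for HOXD3, and without a stated strand setting their reads in shared bases cannot be told apart. Summed to 1 feature, an alternative added after the data were seen, the 3 entries had 0.739, 0.737 and 0.353 CPM with dTAG47, 0.705, 1.29 and 0.906 CPM with AGB1, and 1.63, 1.40 and 1.02 CPM in DMSO. The dTAG47 libraries lay below the DMSO libraries, as for 5.82% of all tested genes, and the AGB1 libraries overlapped them. The log2 fold changes of the sum were -1.13 (SE 0.46, adjusted p = 0.613 by edgeR) for dTAG47 and -0.49 (SE 0.46, adjusted p = 0.852) for AGB1.

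HOXD1, which in the mouse shapes the wiring of pain-sensing neurons, did not pass the filter. It had 1, 10 and 4 counts with dTAG47, 2, 1 and 6 with AGB1, and 4, 2 and 7 in DMSO, sums of 15, 9 and 13. Pooled over a group these are 0.135 CPM (95% exact Poisson interval 0.0756 to 0.223) with dTAG47, 0.0940 CPM (0.0430 to 0.179) with AGB1 and 0.127 CPM (0.0676 to 0.217) in DMSO, and the intervals, which cover counting error only, overlap. Of its exonic bases 50.1% are also covered by AC009336.3 and 8% by HAGLR on the opposite strand, and without a stated strand setting reads of these genes cannot be told apart.

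**Figure D5:**
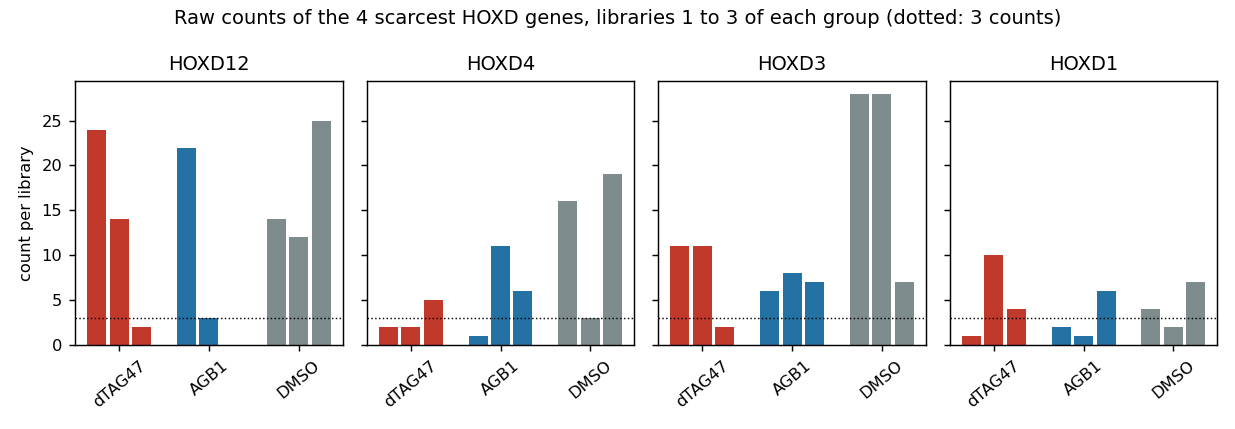
Bars give the raw counts of HOXD12, HOXD4, HOXD3 and HOXD1 in libraries 1 to 3 with dTAG47, AGB1 and DMSO, and the dotted line marks 3 counts. No bar exceeds 28 counts, HOXD12 has a library at 0 in AGB1, and DMSO holds the highest bars for HOXD4 and HOXD3 but also bars within the range of the compounds.

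dTAG47 set directly against AGB1 gave no called gene in the whole table by edgeR (0% of 18319) with 736 at an unadjusted p under 0.05, and DESeq2 and limma-voom also called 0. Of the 8 tested HOXD genes 0 had an unadjusted p under 0.05, 3 were negative and 5 positive, and the median was 0.03. HOXD10 differed by 0.02 (SE 0.10, 95% interval -0.17 to 0.22).

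The genes around the cluster were measured for comparison with its members, and 0 of those within 1 Mb that were tested passed the threshold in either comparison with DMSO by edgeR. The antisense RNA HAGLR, which runs opposite to HOXD3 and HOXD1, averaged 8.49 ± 0.594 CPM with dTAG47, 7.88 ± 0.344 CPM with AGB1 and 7.94 ± 0.286 CPM in DMSO (SD, n = 3 each), with log2 fold changes of 0.10 and -0.01. HOXD-AS2, which runs antisense past HOXD9 and HOXD8 into the HOXD3 model, averaged 2.26, 2.65 and 2.80 CPM, with log2 fold changes of -0.31 (SE 0.27) and -0.07 (SE 0.27). MTX2, a mitochondrial outer membrane protein gene beyond the HOXD1 end, gave 0.11 and 0.08, and LNPK, an endoplasmic reticulum gene beyond the HOXD13 end, gave 0.01 and 0.02. Besides the readthrough entry AC009336.2, the other tested neighbours gave -0.14 and -0.12 for ATF2, -0.0032 and 0.07 for ATP5MC3, 0.20 and 0.28 for the pseudogene AC016739.1 and -0.77 and -0.41 for the scarce LINC01116, each for dTAG47 and then AGB1. EVX2, the homeobox gene just outside the HOXD13 end, had 11, 4 and 3 counts with dTAG47, 4, 0 and 18 with AGB1, and 0 in each DMSO library. It did not pass the filter, and 0 counts in a DMSO library, with 3 counts as the floor, allow up to 0.0935 CPM at the depth of the shallowest. HAGLROS and AC009336.1 had at most 8 counts in a library.

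Most HOX genes of the other clusters had negative fold changes too. Of 29 tested genes of clusters A, B and C, 28 were negative with dTAG47 and 25 with AGB1, with medians of -0.26 and -0.31, where 50.3% of all tested genes were negative in each comparison. Of the 29, 0 passed the threshold with dTAG47 and 2 with AGB1, against 0.0600% and 0.104% of all tested genes. These 2 were HOXB3 and HOXB9, the genes whose lower level had led to the choice of the HOXD cluster, so their count adds no independent evidence. Among the paralogs of HOXD10, HOXA10 averaged 56.0 ± 4.52 CPM with dTAG47, 61.7 ± 0.968 CPM with AGB1 and 67.2 ± 2.75 CPM in DMSO (SD, n = 3 each), with log2 fold changes of -0.26 (adjusted p = 0.294 by edgeR) and -0.12. HOXC10 averaged 12.5 ± 0.767, 10.8 ± 0.506 and 14.4 ± 2.37 CPM, with log2 fold changes of -0.20 and -0.41 (adjusted p = 0.366 by edgeR). The paralogs of HOXD13 gave -0.20 and -0.15 for HOXA13, -0.05 and 0.01 for HOXB13 and -0.46 and -0.54 for HOXC13 (adjusted p = 0.360 and 0.198 by edgeR), with dTAG47 and then AGB1. HOXC13 libraries with either compound lay below those of DMSO, unlike those of HOXD13, and so did those of HOXA10, HOXB9 and other HOX genes. Over all tested genes this held for 5.82% with dTAG47 and for 6.75% with AGB1, each compound taken alone.

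Genes for proteins that act on HOX clusters passed the threshold in 0 cases with either compound by edgeR. Their counts at an unadjusted p under 0.05 stand beside 7.28% of all tested genes with dTAG47 and 7.76% with AGB1, and their negative counts beside 50.3% in each. Of 12 tested genes of Polycomb complex PRC2, 9 were negative with dTAG47 and 11 with AGB1, with a median of -0.05 in each, and unadjusted p was under 0.05 for 1 and 0. Of 19 genes of PRC1, 13 and 12 were negative, with medians of -0.02 and -0.08, and unadjusted p was under 0.05 for 6 and 5. Trithorax and H3K27 demethylase genes were negative in 9 of 13 with each compound, with medians of -0.01 and -0.02 and unadjusted p under 0.05 for 1 and 0. CTCF and cohesin genes were negative in 8 and 9 of 11, with medians of -0.09 and -0.07 and unadjusted p under 0.05 for 1 and 1. The PBX and MEIS type cofactors, which bind DNA together with HOX proteins, were negative in 7 of 9 with each, with medians of -0.17 and -0.21 and unadjusted p under 0.05 for 5 and 5. In each case the first value is for dTAG47 and the second for AGB1, both against DMSO.

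Across the 9 libraries, the genes whose log2 level followed that of HOXD13 most closely among 11435 genes at 5 CPM or more were CTDSP1 (Pearson r = 0.974), CBX2 (r = 0.964), which encodes a Polycomb protein, and METTL13 (r = 0.949). The same measure was 0.412 for HOXD10, 0.362 for HOXD11, 0.360 for HOXD9 and -0.174 for HOXD8. These coefficients describe 9 libraries that also share depth, GC trend and treatment, and carry no test.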

How the data were processed

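The authors deposited whole-number counts per gene, one table for each library. HISAT2, DESeq2 and hg38 are named in, and taken per, the submitters' processing notes. How reads were counted, whether by strand, and with which versions is not given in the sources used here. Lengths for CPM per kilobase come from the deposited count tables, and 58735 of 58735 gene models match GENCODE 29. The counts were fitted with edgeR 4.0.16 in R 4.3.3 (filterByExpr with a minimum count of 10, TMM, quasi-likelihood test, one coefficient per group, all 9 libraries), with Benjamini-Hochberg adjustment over 18319 tested genes and a threshold of 0.05. CPM use TMM-scaled totals. Reads carry no molecular identifiers, so floors and Poisson intervals cover counting error only. Named were the 9 HOXD genes, tested genes within 1 Mb, EVX2 and antisense genes of the cluster, paralogs of a HOXD gene's group, list genes past the threshold, and the 3 genes most like HOXD13. The members and lists were chosen with earlier results of these data known. Alternatives were DESeq2 1.42.0, limma-voom (limma 3.58.1), 2 other scalings, 2 other filters, 2 groups alone, a replicate block, removal of the GC trend, each library left out, and 2 added after the data were seen: 2 libraries with steep GC trends left out together, and a summed HOXD3, HOXD4 and AC009336.2.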

Additional observations from a re-analysis of the deposited data

How the results depend on the processing

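Of 460 recomputed HOXD fold changes with an adjusted p, 447 kept their direction and side of the threshold, and 4 more, from DESeq2, had no adjusted p. The summed HOXD3, HOXD4 and AC009336.2 is not among them. DESeq2 called HOXD10 with AGB1 (-0.35), so that 1 HOXD gene was called there; every other alternative called 0 in each comparison. The number of genes called with dTAG47 against DMSO, 11 as reported, was 47 with DESeq2, 43 with no count filter, 4 with only the 2 groups compared, 22 with the GC trend removed, 6 without both steep-GC libraries (DMSO 1 and dTAG47 1), and 2 to 20 with one library left out, with DMSO 3 giving the highest and dTAG47 1 the lowest count, and 3, 5 and 6 when DMSO 2, DMSO 1 or dTAG47 3 was left out. For AGB1 against DMSO, 19 as reported, it was 67 with DESeq2 and with no count filter, 47 with the GC trend removed, 48 when a replicate block was added to that, 29 without both steep-GC libraries, and 6 to 55 with one library left out, with DMSO 3 giving the highest and AGB1 3 the lowest count, and 7, 9 and 10 when DMSO 2, AGB1 2 or DMSO 1 was left out. For dTAG47 against AGB1, 0 as reported, it was 13 with no count filter, 2 without both steep-GC libraries, and 0 to 2 with one library left out (1 without dTAG47 1, 2 without AGB1 1). Signs changed in 12 cases. With one library left out, the log2 fold change for dTAG47 against DMSO ran from -0.12 to 0.17 for HOXD9 (0.066 without DMSO 1), -1.32 to 0.0087 for HOXD12 and -0.065 to 0.041 for HOXD13. For AGB1 against DMSO it ran from -0.25 to 0.081 for HOXD8. For dTAG47 against AGB1 it ran from -0.47 to 0.31 for HOXD3, -0.030 to 0.067 for HOXD10 and -0.31 to 2.69 for HOXD12, which was -0.30 without both steep-GC libraries. The cause of these differences was not tested. Libraries of different groups share replicate numbers, but over 9 same-numbered pairs the correlation of deviations ran from -0.161 to 0.073 and 0 exceeded 0.1. Pairs with unlike numbers ran from -0.258 to 0.270. These values show no pairing by number but cannot exclude it, since GC trends that differ between libraries enter the deviations. With the replicate number as a block 10, 17 and 0 genes were called in the 3 comparisons and no HOXD call changed. HOXD1, HOXD3, HOXD4 and HOXD12 are limited by depth, at 28 counts or fewer per library.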
